A study of Mus musculus with 17 samples.

Results

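The 1526 strongest H3K27ac peaks of mouse hypothalamus that lie away from the ends of protein-coding genes are described here. They are the intervals of a deposited peak list of 183678 intervals with a fold enrichment of at least 10, the value the authors' peak caller gave each peak, and a summit more than 2500 bp from both ends of every protein-coding gene span. Such peaks are referred to as strong distal peaks. Of 157805 distal peaks, 0.967% reached that fold, against 20.2% of the 25873 peaks nearer to a gene end and 3.67% of all peaks. Fold and distance chose the peaks, so these shares describe the choice and are no result about them.

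The list belongs to 3 bulk CUT&Tag samples of dissected hypothalamus, labelled as biological replicates, in which an antibody against H3K27ac directed the Tn5 transposase to marked chromatin. The other samples of the study, 7 DNA and 7 RNA sub-libraries of Paired-Tag from the same tissue with antibodies against H3K27ac and H3K27me3, were not analysed here. The labels used here give no strain, age, sex, treatment or pooling, and no control tissue stands beside the list. The list holds a single value for each peak, without read counts and without values for the replicates. The depth behind a peak is therefore unknown, no test across samples could be made, and Wilson 95% intervals cover counting error only.

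H3K27ac is acetylation of lysine 27 of histone H3, laid down mainly by the acetyltransferases CBP and p300 and read by bromodomain proteins. It marks active promoters and active enhancers alike, so a distal position is commonly used to tell enhancers apart, and that use depends on which transcript starts are known. Enhancers of brain cells are often active in few cell types, whereas CpG-rich promoters of widely used genes tend to be active in most.

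Many strong distal peaks lay at transcript starts that are not the ends of a protein-coding gene. Sequences of 6 such start windows, each from 250 bases before to 50 bases after a start and taken from RefSeq on build GRCm38.p6, show the range of promoters that strong distal peaks covered. They run 5' to 3' on the strand of the gene. In the first 5, which are given in falling order of CpG content, capitals mark CpG dinucleotides. In the Egf window, capitals mark the NRF1 letters, which are GCGC, any base and then TGCGC, and the letters CCGGAAG known from ETS factors.
Adipor2 start, chr6:119388685-119388984, minus strand: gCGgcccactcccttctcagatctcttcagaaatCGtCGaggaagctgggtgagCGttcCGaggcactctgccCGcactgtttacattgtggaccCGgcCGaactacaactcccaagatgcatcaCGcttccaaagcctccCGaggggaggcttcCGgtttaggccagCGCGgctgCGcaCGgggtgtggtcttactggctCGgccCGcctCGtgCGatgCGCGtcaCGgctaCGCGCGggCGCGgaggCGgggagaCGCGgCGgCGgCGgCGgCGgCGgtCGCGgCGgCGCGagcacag
Chaserr start, chr7:73558346-73558645, minus strand: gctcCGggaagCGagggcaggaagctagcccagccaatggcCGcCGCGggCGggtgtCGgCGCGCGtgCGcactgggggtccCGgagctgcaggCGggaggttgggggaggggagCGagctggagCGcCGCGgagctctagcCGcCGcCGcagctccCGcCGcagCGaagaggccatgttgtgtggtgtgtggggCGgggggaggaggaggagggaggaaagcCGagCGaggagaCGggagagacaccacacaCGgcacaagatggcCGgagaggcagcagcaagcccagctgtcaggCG
Kifap3 start, chr1:163779333-163779632, plus strand: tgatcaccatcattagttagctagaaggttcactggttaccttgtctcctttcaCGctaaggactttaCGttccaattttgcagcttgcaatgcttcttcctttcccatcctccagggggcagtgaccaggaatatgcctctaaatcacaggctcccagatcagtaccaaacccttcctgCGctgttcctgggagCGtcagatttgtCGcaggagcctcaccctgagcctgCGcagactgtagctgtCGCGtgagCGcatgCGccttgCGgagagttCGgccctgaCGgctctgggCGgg
Oprm1 start, chr10:6788320-6788619, plus strand: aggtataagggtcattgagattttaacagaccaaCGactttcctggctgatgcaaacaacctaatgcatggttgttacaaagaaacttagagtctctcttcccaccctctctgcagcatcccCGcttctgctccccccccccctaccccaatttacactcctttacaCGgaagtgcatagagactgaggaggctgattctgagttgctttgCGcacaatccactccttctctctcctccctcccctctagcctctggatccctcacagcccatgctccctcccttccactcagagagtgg
Map7d2 start, chrX:159458875-159459174, plus strand: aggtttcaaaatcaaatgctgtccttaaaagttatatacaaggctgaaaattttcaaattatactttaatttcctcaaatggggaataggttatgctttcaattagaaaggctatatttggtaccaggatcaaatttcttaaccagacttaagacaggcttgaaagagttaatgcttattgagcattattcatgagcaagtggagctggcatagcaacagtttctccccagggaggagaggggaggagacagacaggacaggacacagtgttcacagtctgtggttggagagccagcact
Egf start, chr3:129725037-129725336, minus strand: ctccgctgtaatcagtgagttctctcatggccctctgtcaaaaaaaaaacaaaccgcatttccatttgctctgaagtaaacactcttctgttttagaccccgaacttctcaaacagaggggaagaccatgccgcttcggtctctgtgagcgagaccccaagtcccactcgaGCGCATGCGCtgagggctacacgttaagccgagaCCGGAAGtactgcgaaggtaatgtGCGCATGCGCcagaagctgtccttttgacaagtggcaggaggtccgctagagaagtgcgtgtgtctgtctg

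Adipor2, which encodes an adiponectin receptor, had 41 CpG and an observed over expected CpG ratio of 1.16 in this window, and its peak had a fold of 13.56. Chaserr, a lncRNA beside Chd2 that restrains Chd2 expression in mouse, had 30 CpG and a ratio of 0.83 under a peak with a fold of 13.97. Kifap3, which encodes the cargo adaptor of the kinesin-2 motor, had 14 CpG and a ratio of 0.62 under a peak with a fold of 23.40. Oprm1, the gene of the mu opioid receptor, had 4 CpG and a ratio of 0.22 under a peak with a fold of 11.78. Map7d2, a microtubule-associated protein gene on the X chromosome, had none, and its peak still had a fold of 14.19. The Egf window, upstream of an internal start of the epidermal growth factor gene, held the NRF1 letters at 2 places and the ETS letters at 1, under the peak with the highest fold of any at a protein-coding start, 25.24.

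Of 1005 hairpins in the RefSeq miRNA table, 23 (2.29%, Wilson 95% interval 1.53 to 3.41) lay within 10 kb of the summit of a strong distal peak, near the 2.99% of 26048 other noncoding genes. The sequences shown are those of well-studied miRNAs among the 23, picked by name after their distances were seen, and they do not stand for the rest. Capitals mark the seed, bases 2 to 8.
miR-9-5p: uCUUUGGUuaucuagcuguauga
let-7a-5p: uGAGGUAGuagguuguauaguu
let-7e-5p: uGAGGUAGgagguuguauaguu
let-7f-5p: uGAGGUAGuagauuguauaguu
miR-125a-5p: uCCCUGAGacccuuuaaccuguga
miR-7b-5p: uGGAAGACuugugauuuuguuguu
miR-210-3p: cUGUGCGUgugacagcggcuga

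Mir9-2, a source of the neural miRNA miR-9, lay 6243 bp from the summit of a peak with a fold of 15.80 at chr13:83744776-83746166. That summit lay 78049 bp downstream of Mef2c and 3820 bp from an end of the noncoding gene C130071C03Rik. The let-7a, let-7e and let-7f sequences share the seed GAGGUAG, and those of their hairpins within 10 kb of a strong distal summit lay at 2 places. Mirlet7a-1 and Mirlet7f-1 lay 8279 and 8634 bp from the summit of a peak with a fold of 10.65. Mirlet7e and Mir125a lay 7955 and 7520 bp from the summit of a peak with a fold of 10.76. Mir7b, a miRNA of the hypothalamus and pituitary, lay 9011 bp from the summit of a peak with a fold of 11.42. The hairpins of 2 miRNAs lay inside a strong distal peak: Mir210, a hypoxia-induced miRNA, 459 bp from the summit of a peak with a fold of 10.60, and Mir713, 69 bp from the summit of a peak with a fold of 10.91.

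The label of candidate enhancer fitted the strong distal peaks only in part. The RefSeq start table, which covers protein-coding and lncRNA transcripts outside chromosome 18, could be set against 1463 of the peaks, since 63 lay on that chromosome. Of these, 558 had a summit within 1 kb of a listed transcript start or of a noncoding gene end. That is 38.1% (Wilson 95% interval 35.7 to 40.7), against 5.77% of 150361 weaker distal peaks. Starts of protein-coding genes that lie inside the gene span accounted for 319 peaks and lncRNA starts for 137. Other noncoding gene ends, such as those of pseudogenes or the far ends of lncRNAs, accounted for 102. Such an end need not be a transcript start, and a listed start itself lay within 1 kb of 456 peaks (31.2%). The other 905 peaks (61.9%) lay away from all of these: 360 inside protein-coding genes, 94 inside noncoding genes and 451 outside genes.

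Within the strong distal peaks the fold ran from 10.00 to 27.70 with a median of 11.81, with quartiles of 10.71 and 13.53. In width they ran from 290 to 2267 bp with a median of 1040 bp, against 524 bp for weaker distal peaks and 1203 bp for the 5219 strong peaks at gene ends, whose median fold was 12.88. The q-values came from the same calls, with a median −log10 q of 198.0 and a range of 87.7 to 963.4. Neighbours were few: a strong distal peak had on average 1.25 other distal peaks within 10 kb, against 3.20 for a weaker distal peak, and 36.8% had none, against 9.88%. Summits of strong distal peaks lay inside a protein-coding gene in 48.7% of cases (743 peaks, Wilson 95% interval 46.2 to 51.2), against 68.5% of weaker distal peaks.

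Strong and weaker distal peaks, chosen by the same distance rule, differed in how many lay close to a listed start. Since the rule removed summits near the ends of protein-coding genes, short distances come only from internal and noncoding starts, and the small number at 1000 to 2500 bp is partly set by the rule. Of the 1463 peaks, 16.8% had a start within 100 bp of the summit, 26.9% within 250 bp and 31.2% within 1000 bp, against 0.687%, 1.35% and 2.83% of weaker distal peaks. Between 1000 and 2500 bp few were added, the share reaching 33.7%, against 5.12% of weaker distal peaks.

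**Figure D1:**
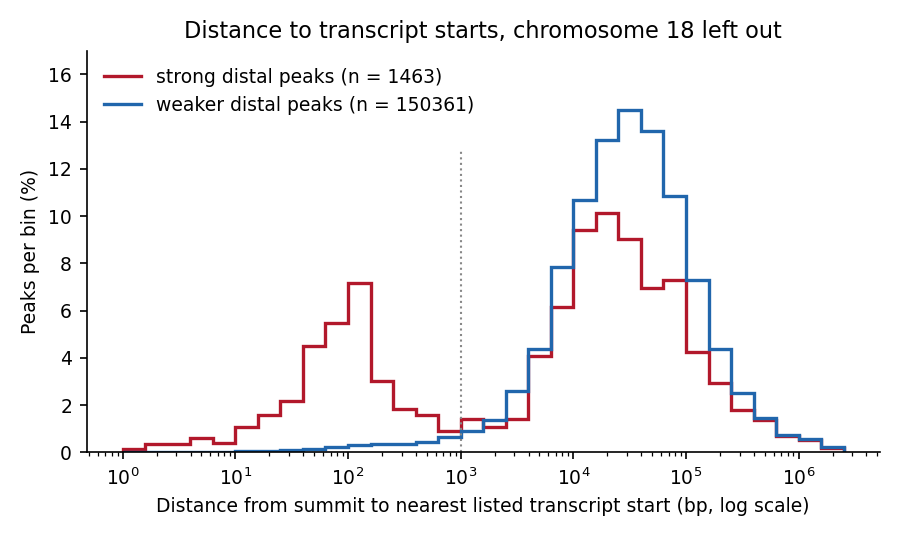
Distribution of the distance from the summit to the nearest listed transcript start (bp, log scale) for strong distal peaks (red, n = 1463) and weaker distal peaks (blue, n = 150361), as percent of peaks per bin; the dotted line marks 1000 bp. Strong distal peaks show a hump near 100 bp where weaker distal peaks are few, 31.2% against 2.83% lying within 1000 bp.

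The share at a start or noncoding gene end was larger in each higher bin of fold from 2 upward. Among distal peaks with a fold of 2 to 3 it was 4.59%, at 5 to 6 it was 8.60%, and at 9 to 10, just below the threshold, it was 23.6%. Inside the threshold it was 31.8% of 776 peaks with a fold of 10 to 12, 43.6% of 486 peaks at 12 to 15 and 48.0% of 177 peaks at 15 to 20. Of the 24 peaks with a fold of at least 20, 58.3% were at such a place, with a Wilson 95% interval of 38.8 to 75.5. The 9 to 10 and 10 to 12 bins were neighbours in this order, and the threshold of 10 lies within a gradual slope.

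**Figure D2:**
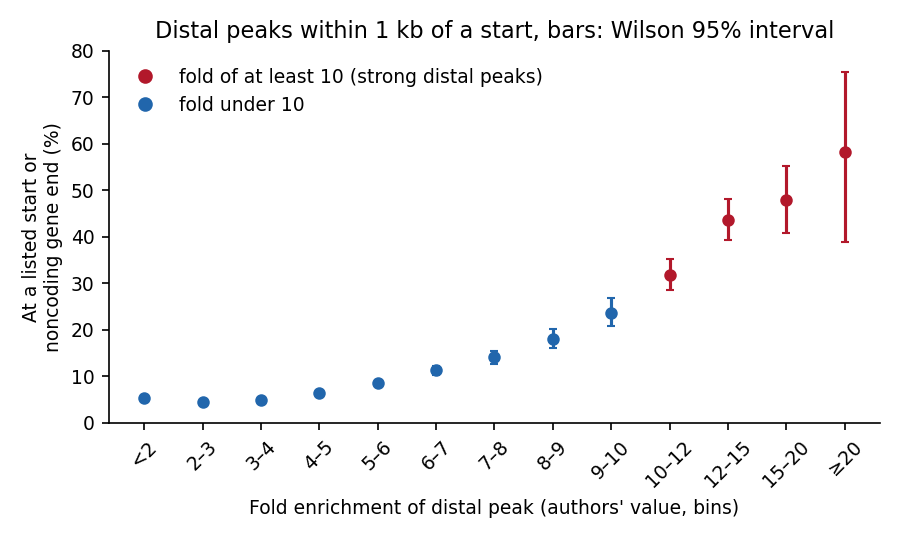
Percent of distal peaks with a summit within 1 kb of a listed transcript start or noncoding gene end, by fold enrichment, with Wilson 95% intervals as bars; red points are strong distal peaks and blue points weaker ones. The share is 58.3% at a fold of at least 20, 31.8% at 10 to 12 and 4.59% at 2 to 3.

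Strong distal peaks at starts of protein-coding genes had a median fold of 12.24 and a median width of 1224 bp. After Egf (chr3:129724946-129725547, 25.24) and Kifap3 (chr1:163779333-163780381, 23.40) came Echdc1, an enzyme gene of acyl-CoA metabolism whose start faces the lncRNA Gm46218, with 21.93. Zfp229, a zinc finger gene, had 21.78, and Rpp40, a subunit of RNase P, had 20.08. Mrpl48, of the mitochondrial ribosome, had peaks at a pair of its starts, with folds of 20.00 and 17.58. Further down were Trmo (19.91), a tRNA methyltransferase gene, Cmtr2 (19.11), which encodes an mRNA cap methyltransferase, Fbxw7 (19.11), a substrate receptor of a ubiquitin ligase, and Pcca (18.03), a subunit of propionyl-CoA carboxylase. The listed starts nearest to these summits belonged to 317 genes, some of them lncRNA genes such as Gm46218. Symbols beginning with Zfp made up 15 of the 317 (4.73%), against 333 of all 17492 protein-coding genes with a listed start (1.90%). The other beginnings counted were Mrp and Cox, with 2 genes each (0.631%), and Psm, with 3 (0.946%), against 0.394%, 0.114% and 0.246%.

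Among lncRNA starts, where the median fold was 12.70 and the median width 1118 bp, many of the highest values belonged to transcripts without a functional name. Gm26618 near Ezhip, which encodes an inhibitor of the Polycomb methyltransferase, had 21.17, and 5730405O15Rik near the deubiquitinase gene Usp9x had 20.87, each on the X chromosome. LncRNAs with known functions, picked by name after their values were seen, included Kantr with 15.41, Dancr with 14.67, Oip5os1 with 14.46, Firre, which shapes nuclear organisation of the X chromosome, with 14.28, and Kcnq1ot1, the imprinted antisense transcript of Kcnq1, with 10.67. The snoRNA hosts Snhg15, Snhg17, Snhg5 and Snhg12 had 14.18, 12.79, 11.67 and 10.76. The summits at these lncRNAs with known functions and snoRNA hosts lay between 20 and 161 bp from the start. At Gm26618 and 5730405O15Rik the distances were 331 and 120 bp. In the list the nearest protein-coding genes to Snhg15, Snhg17, Snhg5, Snhg12, Firre, Oip5os1 and Kcnq1ot1 were Myo1g, Lbp, Zfp949, Trnau1ap, Stk26, Chp1 and Kcnq1.

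Strong distal peaks at other noncoding gene ends held the highest fold of all, 27.70 at chr13:21505907-21506728, 48 bp from an end of the noncoding gene Zfp389 near Zkscan8. Several of the others lay in a stretch of 7 peaks at chr8:19784476-20558268. Of these 7, 5 were strong distal peaks, with folds of 23.20, 24.84, 27.67, 25.22 and 10.18, and 4 of the 8 strong distal peaks with a fold of at least 23 in the whole list lay there. The summits lay 13, 3 and 14 bp from ends of Gm10060, Gm20583 and Gm20584 for the peaks with folds of 23.20, 27.67 and 25.22. Whether near-identical copies of these loci share reads was not tested.

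**Figure D3:**
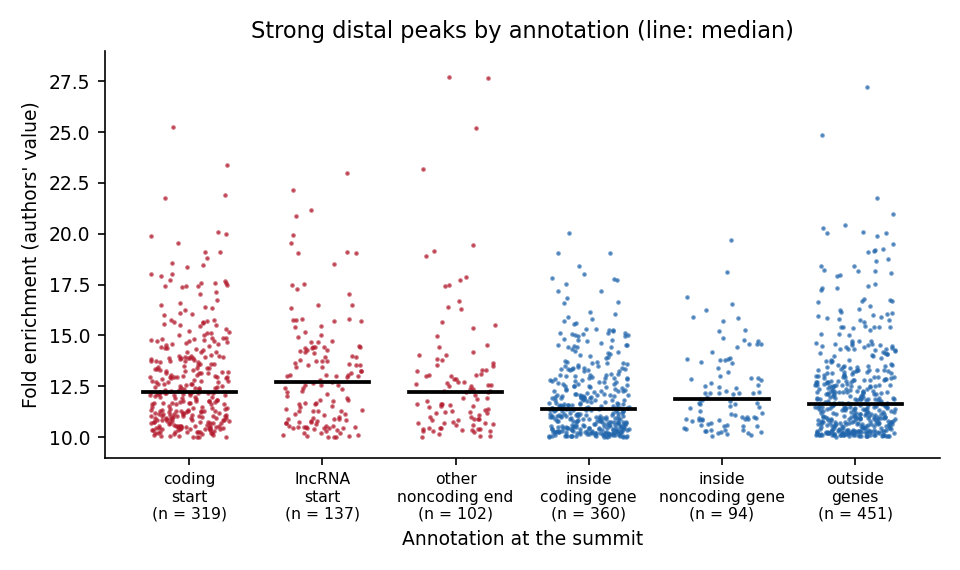
Fold enrichment of each strong distal peak outside chromosome 18 (points), by what RefSeq lists at the summit; black lines are medians, red points are within 1 kb of a start or noncoding gene end and blue points are not. The medians lie between 11.39 inside coding genes and 12.70 at lncRNA starts, within overlapping ranges.

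The start windows under strong distal peaks were mostly rich in CpG. A window was counted under a peak when its start lay inside the peak. Over the 545 such windows of 466 genes, the median observed over expected CpG ratio was 0.747 and the median GC content 60.7%. A ratio of at least 0.6 was reached by 69.9% (Wilson 95% interval 65.9 to 73.6), against 22.6% of 3104 windows under weaker distal peaks, 83.7% of 5721 windows under strong peaks at gene ends and 35.8% of all 32851 windows. Among lncRNA windows alone it was 57.1% under strong distal peaks and 14.0% of all, and among protein-coding windows 75.6% and 47.7%. Windows of neighbouring transcripts can overlap, so they are not independent of each other.

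**Figure D4:**
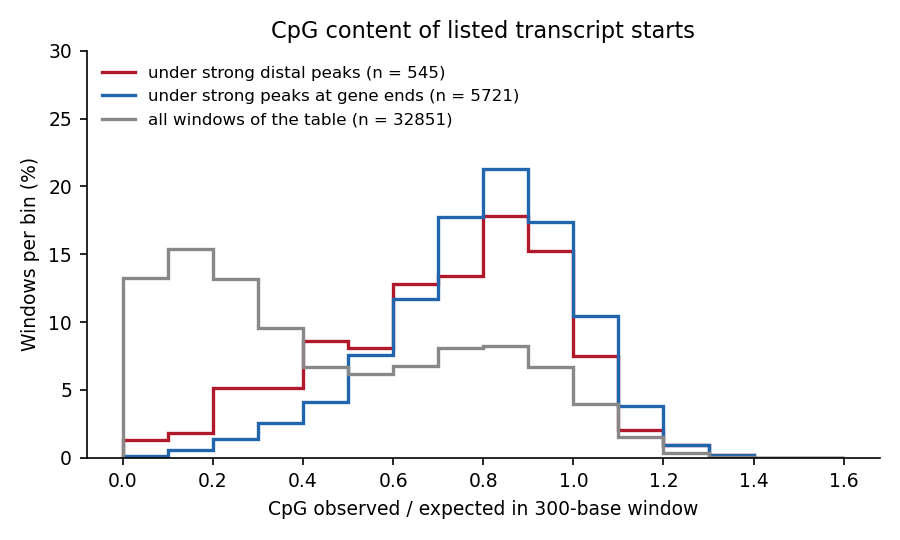
Distribution of the observed over expected CpG ratio of 300-base start windows, as percent of windows per bin, for windows under strong distal peaks (red, n = 545), under strong peaks at gene ends (blue, n = 5721) and for all windows (grey, n = 32851). The medians are 0.747, 0.819 and 0.384.

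Letters known from promoter factors were searched on both strands of the same windows. The NRF1 letters, spelled out with the Egf window, were in 11.9% of windows under strong distal peaks, against 1.61% under weaker distal peaks, 14.4% under strong peaks at gene ends and 4.60% of all windows. The ETS letters CCGGAAG were in 17.1%, against 4.25%, 25.0% and 8.86% of the same sets, and the GC box GGGCGG in 60.9%, against 29.9%, 68.6% and 35.7%. The order of the sets was the same as for CpG content, and all 3 sequences hold CpG. The TATA box, AP-1 and homeodomain sequences, which hold no CpG, took other orders. The TATA box TATAAA was in 6.61%, against 8.99%, 4.82% and 13.6%. The AP-1 letters TGANTCA were in 4.04%, against 8.96%, 3.58% and 7.81%, and the homeodomain letters TAATTA in 2.02%, against 3.96%, 1.96% and 5.29%. The YY1 letters AAGATGGC also hold no CpG but kept the order of CpG content, with 3.67%, against 1.32%, 5.89% and 2.75%. The CCAAT box CCAAT differed little, with 35.4%, against 32.2%, 40.2% and 37.4%. The remaining searches are given against the same sets in the same order. The CRE TGACGTCA was in 3.30%, against 1.39%, 4.11% and 1.79%, and the E-box CACGTG in 9.72%, against 6.44%, 11.6% and 7.15%. The SOX letters ACAAAG were in 14.5%, against 21.4%, 11.7% and 18.7%. The RFX half-site GTTGCCA was in 5.50%, against 5.54%, 4.25% and 4.38%. A match of letters is a description and not a bound site.

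Away from starts and noncoding gene ends, the 905 remaining strong distal peaks had a median fold of 11.55 and a median width of 972 bp, against 12.36 and 1164 bp for the 558 at such places. The strongest, with a fold of 27.20, lay 11260 bp downstream of the predicted gene Gm35315. Fer, a cytoplasmic tyrosine kinase gene, had a peak of 21.74 at 12322 bp upstream of its span, Mki67, the gene of the proliferation antigen Ki-67, had 21.00 at 19415 bp upstream, and Pum2, an RNA-binding repressor gene, had 20.46 at 33191 bp upstream. Eif2s3x, an X-linked translation initiation factor gene, had 20.26 at 10708 bp downstream, and Pnma3 had 20.08 at 10766 bp upstream. Nearest genes are given by position alone.

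Genes of known brain or stimulus-linked function also lay nearest to some of the strongest peaks in this class. Klf4, a transcription factor gene induced by growth signals, had a peak with a fold of 20.05 at chr4:55514545-55515360, 12134 bp downstream. Mog, which encodes myelin oligodendrocyte glycoprotein, had 19.49 at chr17:37028382-37029478, 5457 bp upstream. Hlf, a PAR bZIP factor gene of clock output, had 19.09 at chr11:90417651-90418571, 27183 bp upstream. Sfpq, a splicing factor gene, had 19.14 at 4999 bp upstream.

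The 708 protein-coding genes that held a strong distal summit had a median span of 86730 bp. That value is shaped in part by the distance rule, since short genes cannot hold a distal summit and long ones offer more room. Under the same rule the median was 42074 bp for 9951 genes that held a weaker distal summit. It was 25809 bp for all 16853 genes long enough to hold a distal summit. The sets also differ in size, with 1526 strong and 156279 weaker distal peaks, so these medians are not compared like for like. The cause of the difference was not tested. Dlg2, which encodes the synaptic scaffold PSD-93 and spans 1973059 bp, held 4 peaks with folds of 16.62, 14.64, 13.77 and 10.91, and a pair of these, at 906419 and 786012 bp from its ends, were among the 5 farthest from any protein-coding gene end. The farthest of all, 2187568 bp away on chromosome 18, had Pik3c3 as its nearest gene and a fold of 13.10, and the next, at the lncRNA 1700019L22Rik 1393735 bp from Tenm3, had 10.41. Upstream of Api5, a peak with a fold of 12.86 lay 794122 bp away. In all, 230 strong distal peaks lay more than 100 kb from every such end.

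Chd2, which encodes a chromatin remodeller linked to epilepsy, was given more strong distal peaks than any other gene. Its 5 peaks had folds of 14.97 inside the gene, 13.97 at the Chaserr start whose sequence is shown above, and 12.67, 11.88 and 11.19 in a row beyond it, with 23152 bp between the outer summits of that row. Mef2c, a neuronal transcription factor gene, was given 3, with folds of 12.93 and 10.06 near its start region and 15.80 beyond its far end beside Mir9-2. Of the 1273 genes given a peak, 1173 had 1, 86 had 2 and 12 had 3. The genes with 3 included Tank, Rbm20, Pecr, Zbtb38, Sertad2, Gtdc1, Skor1, Pls3, Astn2 and Specc1. A further 144 peaks lay in no protein-coding gene span and over 100 kb from any end of one, and were given to none. Some of these lay at or in noncoding genes.

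Strong distal peaks were also joined by distance. Of the 1526, 60 (3.93%, Wilson 95% interval 3.07 to 5.03) had another within a joining distance midway between 10 and 15 kb. Joining gave 1494 domains. That share moved with the threshold, to 5.78% at a fold of at least 8 and 1.83% at a fold of at least 12. It was not compared with scattered positions, so it does not show whether the peaks lie close together or apart. The largest domain, between Mreg and Pecr, held 4 peaks over 28767 bp with folds of 10.02, 11.55, 14.44 and 11.19, all at noncoding starts or ends. Domains of 3 lay beside Chd2 and between Arl4d and Rdm1, with folds of 13.63, 13.53 and 14.19 in the second. The widest single peaks were 2267 bp at the lncRNA Gm36445, 2181 bp inside Stxbp6, 2168 bp at a start of Nktr and 2161 bp at the lncRNA 0610025J13Rik, with folds of 12.42, 11.40, 12.63 and 12.70.

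The X chromosome had few distal peaks, but a larger share of them was strong. It held 62 strong distal peaks among 1841 distal ones (3.37%, Wilson 95% interval 2.64 to 4.29), against 0.939% on the autosomes together and 0.751% to 1.22% on single autosomes. Per Mb it held 0.363 strong distal peaks, against 0.481 to 0.898 on single autosomes, and 10.8 distal peaks of any fold, against 63.9 on the autosomes together. Of the X-linked strong distal peaks, 28 (45.2%) were at a start or noncoding gene end, against 37.8% on the autosomes outside chromosome 18. Eif2s3x, Pnma3 and the lncRNAs near Usp9x and Ezhip supplied 4 of the 20 highest folds of the whole set.

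Gene lists of hypothalamic function and cell types were read against the share of all protein-coding genes given a strong distal peak, 5.82% (1273 of 21887). Of 22 lists, 11 had a higher share, most of them by 1 or a few genes. The highest was among transcriptional and chromatin regulators of brain, 6 of 24 genes (25.0%, Wilson 95% interval 12.0 to 44.9). Besides Mef2c these included Nfib (folds 14.59 and 12.05) and Nfia (10.53), nuclear factor I genes of glial differentiation, the homeodomain factor gene Meis1 (11.59), and Auts2 (11.38). The genes of this list were long, with a median span of 114864 bp, and the part of length in the share was not tested.

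Circadian clock genes were given a strong distal peak in 4 of 22 cases (18.2%, 7.31 to 38.5). Hlf led with 19.09, the nuclear receptor gene Rora had 14.95 and 10.06 inside its span, the repressor gene Cry1 had 11.24 at 36146 bp upstream, and Bhlhe40 had 10.96 at 43100 bp. Immediate early genes, which respond to neuronal activity, had 3 of 22 (13.6%, 4.75 to 33.3): Klf4, Nr4a1 with 14.33 at 7456 bp upstream, and Fos with 12.19 at 18512 bp upstream. Pan-neuronal genes had 4 of 24 (16.7%, 6.68 to 35.9). In that list the synaptic adhesion gene Nrxn3 (13.51 and 11.27) held its peaks inside the gene, as did Map2 (10.04), and Snap25, of the vesicle fusion machinery, had 10.71 at 34661 bp. None of the peaks given to these 11 genes was at a listed start. Median spans were 65918 bp for pan-neuronal, 34346 bp for clock and 4794 bp for immediate early genes, against 17169 bp for all protein-coding genes. The part of length in these shares was not tested.

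Lists that define the hypothalamus had shares whose intervals hold the background of 5.82%. Of 36 hypothalamic transcription factor genes, 1 was given a strong distal peak (2.78%, 0.492 to 14.2), Zfhx3, a factor of the suprachiasmatic nucleus, with 11.14 inside the gene. Of 32 neuropeptide genes, 1 was given a peak (3.12%, 0.554 to 15.7), Nucb2, the nesfatin-1 precursor gene, with 12.79. Hormone and peptide receptors had 5 of 39 (12.8%, 5.60 to 26.7), an interval that also holds the background. Adipor2 and Oprm1 had theirs at a start, Esr1, the estrogen receptor alpha gene, had 11.49 at 13443 bp upstream, Insr had 10.88 inside the gene and Thrb, a thyroid hormone receptor gene, had 10.44 and 10.32 inside the gene. The hypothalamic factor genes were short, with a median span of 9938 bp, as were neuropeptide genes, at 6334 bp. Receptor genes had a median span of 42969 bp, against 17169 bp for all protein-coding genes.

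Cell-type lists each had 0 to 3 genes, too few to order. Oligodendrocyte precursor genes had 3 of 14, Lhfpl3 (10.52), Enpp6 (10.13) and Tnr (10.11). The genes of that list had a median span of 40826 bp, against 17169 bp for all protein-coding genes. Oligodendrocyte genes had Mog alone of 20, astrocyte genes Slc4a4 (11.39), a bicarbonate transporter gene, of 20, and tanycyte and ependymal genes Ptn (11.36) and Foxj1 (11.34), the cilia regulator, of 20. Choroid plexus genes had Slc4a5 (15.26) of 10, endothelial genes Sox17 (14.74) of 17, and mural genes Notch3 (10.10) of 17. None of the 21 microglial, 20 neurotransmitter identity, 26 Hox, 24 housekeeping, 12 pituitary, 16 blood and lymphocyte genes or 25 genes of other organs was given one. In bulk tissue, few cells of a type and little mark per cell cannot be told apart.

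**Figure D5:**
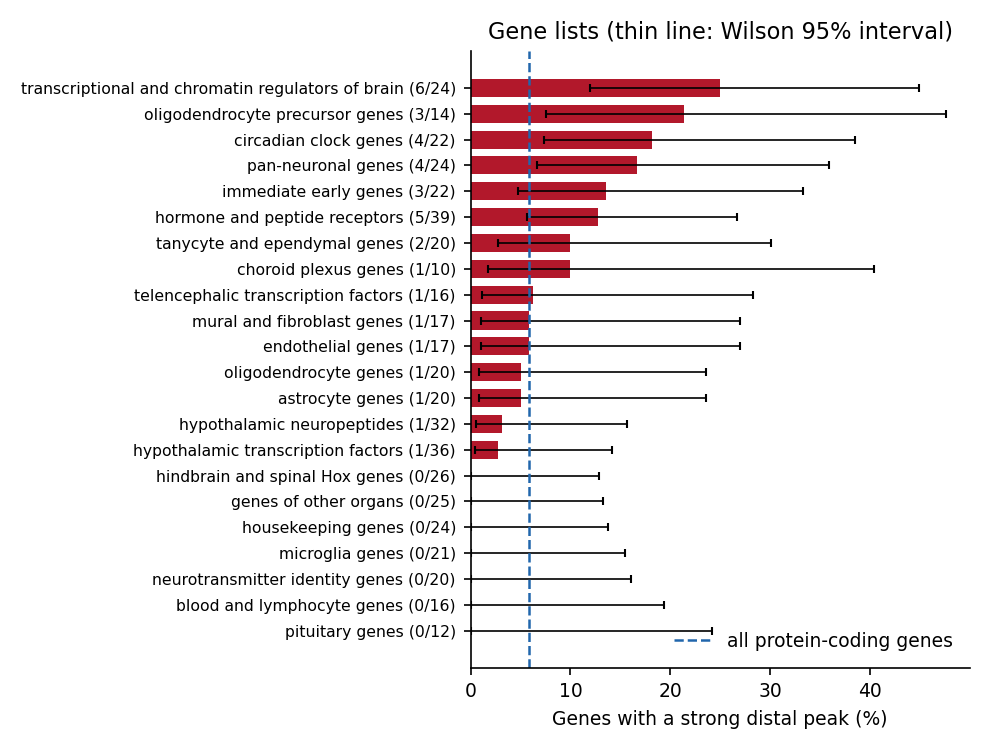
Percent of genes in each list given a strong distal peak (bars, with gene counts in brackets), with Wilson 95% intervals as thin lines and the share of all protein-coding genes, 5.82%, as a dashed line. Transcriptional and chromatin regulators of brain have 25.0%, while the hypothalamic transcription factor and neuropeptide lists have 2.78% and 3.12%.

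The thresholds cut through continuous values. Just inside a fold of 10 were peaks nearest to Unc13c (10.00) and Slc35f1 (10.01), and just outside were those nearest to Abhd17b (9.998) and Tomt (9.992). Just inside the distance of 2500 bp were Hsf2 (2510 bp, fold 17.38) and Cmtr2 (2540 bp, fold 19.11), and just outside were Wdr17 (2493 bp, fold 18.74) and Cd55 (2431 bp, fold 12.65).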

How the data were processed

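H3K27ac was profiled by CUT&Tag in 3 bulk hypothalamus samples, grouped by title with 7 DNA and 7 RNA Paired-Tag sub-libraries that were not analysed here. Tools listed in the submitters' processing notes, without roles, are cutadapt 4.5, BWA 0.7.17 and MACS2 of unstated version, beside UMI-tools 1.1.4 and STAR 2.7.10a, with build mm10. The sources used here do not give caller settings, background or the way replicates were combined. The deposited list gives each peak a fold enrichment as a ratio, a −log10 q-value and a score, all from the authors' caller.

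Gene spans, start windows and miRNAs came from RefSeq tables of GRCm38.p6, matched by position and symbol. The start table holds no entries on chromosome 18. A peak went to a protein-coding gene whose span holds its summit, otherwise to the nearest protein-coding gene end within 100 kb. Coordinates are 1-based. Named peaks followed a rule: the 20 highest folds, 5 widest, 5 farthest, 5 either side of each threshold, 5 domains and 15 genes with most peaks, and up to 4 genes of each list. Some genes under this rule are not reported here. Other named peaks were chosen after their values were seen. The 22 gene lists, 12 letter motifs and the peaks themselves were chosen with earlier results of these data known. Shares carry Wilson 95% intervals, computed with SciPy 1.17.1 and pandas 2.3.3, and no test was made. Counting steps were tested on simulated data.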

Additional observations from a re-analysis of the deposited data

How the results depend on the processing

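Leaving out a replicate could not be tried, since the samples share a list. No paired analysis was possible because the bulk samples have no value of their own and the Paired-Tag samples were not analysed. The motif search around summits was not run, as no genome sequence was used. Of 62 values under other settings, 36 moved by less than their counting error or under 1.5 times and 26 moved by more, and the causes were not tested except where stated. With a fold of at least 8 or at least 12, the number of strong distal peaks was 3702 or 711, the genes given one 2665 or 630, the share with a near neighbour 5.78% or 1.83%, the share within 1 kb of any noncoding gene end 14.8% or 21.5% (274 of 1526 at a fold of 10) and the share at any start or noncoding end 27.6% or 45.3%. Ranking by −log10 q shared 796 peaks (52.2%) with the reported set and gave 59.9% inside protein-coding genes, 6.62% with a near neighbour, a median width of 1254 bp and 45.9% at a start or noncoding end. At more than 1 kb from gene ends, 54.6% lay inside protein-coding genes and the median width was 1078 bp, and at more than 5 kb, 46.2% lay inside. Measuring from the ends of every annotated gene gave 56.3% inside, 2.04% with a near neighbour and, by construction, 0% at noncoding gene ends. Joining at 5 or 25 kb gave 0.262% or 6.03% with a neighbour. Windows of 500 or 2500 bp put 35.1% or 42.7% at a start or noncoding end. Counting only genes that hold the summit gave 708 genes and 7 lists above the background. The start and list settings were chosen after seeing the data. With the depth unknown, absence of a strong distal peak says only that none reached the threshold in this list.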
